A study of Mus musculus with 2 samples.

Results

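The cells described here were T cells with a transcript of *Trdc*, the gene of the constant region of the T cell receptor (TCR) δ chain, in tumor-bearing livers of mice with cholangiocarcinoma (CCA). They were chosen from the measured values. A cell was kept with 500 to 5000 detected genes and at most 10% of its unique molecular identifiers (UMIs, 1 for each captured transcript) from mitochondrial genes. It then needed a UMI of 1 or more of the CD3 genes *Cd3d*, *Cd3e* and *Cd3g*, a UMI of *Trdc*, and no UMI of *Cd4*, *Cd8b1*, *Foxp3*, *Ncr1*, *Cd79a* or *C1qa*. This gate held 69 PBS and 62 anti–PD-1 cells, 131 of 31891 kept cells and of 38848 barcodes in all.

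Both libraries came from shYT animals. Their shRNAs targeted *Yap1* and *Wwtr1*, which encodes TAZ, and were switched on by doxycycline through rtTA3 under the CAG promoter, which is active in all tissues, so that T cells could express them too. Tumors were started by HDTVI, a tail vein injection that brings DNA into hepatocytes, with NICD (an active form of the Notch receptor) and myr-AKT (a membrane-bound, active AKT kinase). The shRNAs were switched on at day 25, 1 group received PBS and the other an antibody to PD-1 (clone RMP1-14) at days 26, 29 and 32, and livers were taken at day 33. Each group was 1 library, and the labels give neither the shRNA line nor the sex or number of animals in it. The study describes several animals per group, and nothing in the files ties a cell to an animal. No library without the YAP/TAZ shRNAs was compared, so the values describe anti–PD-1 against PBS in shYT animals.

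γδ T cells carry a TCR of a γ and a δ chain in place of the α and β chains of CD4 and CD8 T cells, and most of them recognize their targets without classical MHC molecules. In mice they fall into cells set to make IL-17 and cells set to make IFN-γ and to kill, which share many receptors with NK cells. Both kinds live in the liver, where the IL-17 makers are known for long residence and for *Il7r*, *Maf* and *Blk*.

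The γ chain has 4 constant genes in the mouse, and 3 of them are near copies of each other, which limits what their separate counts mean. The first 150 bases of exon 1 of each, and of *Trdc*, are shown in the transcript's direction from GENCODE vM21 transcripts on GRCm38 (mm10), with capitals for the bases of a γ gene that differ from *Trgc1*. Exon 1 of *Trgc3* is listed 1 base longer at its start than that of *Trgc1*, and that base is left out here. All 5 are coding exons of constant regions, and the γ genes lie together on chromosome 13.
Trgc1 (ENSMUSG00000076749, chr13:19214103-19214252, + strand): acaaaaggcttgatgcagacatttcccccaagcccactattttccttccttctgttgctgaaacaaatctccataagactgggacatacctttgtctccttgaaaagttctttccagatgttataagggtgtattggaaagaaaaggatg
Trgc2 (ENSMUSG00000076752, chr13:19307402-19307551, − strand): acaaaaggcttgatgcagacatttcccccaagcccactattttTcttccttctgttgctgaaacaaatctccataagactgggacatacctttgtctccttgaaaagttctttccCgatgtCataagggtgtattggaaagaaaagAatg
Trgc3 (ENSMUSG00000091682, chr13:19260885-19261034, + strand): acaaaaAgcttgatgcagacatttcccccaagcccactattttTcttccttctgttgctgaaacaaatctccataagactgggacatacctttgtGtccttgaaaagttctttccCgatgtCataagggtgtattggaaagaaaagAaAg
Trgc4 (ENSMUSG00000076757, chr13:19344558-19344707, + strand): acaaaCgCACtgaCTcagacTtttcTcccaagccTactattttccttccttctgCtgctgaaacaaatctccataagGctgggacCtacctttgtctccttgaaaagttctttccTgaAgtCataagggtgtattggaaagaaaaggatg
Trdc (ENSMUSG00000104876, chr14:54142851-54143000, + strand): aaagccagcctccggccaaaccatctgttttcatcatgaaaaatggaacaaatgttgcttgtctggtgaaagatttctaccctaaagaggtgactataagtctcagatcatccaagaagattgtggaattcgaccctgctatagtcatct
Over 330 bases of exon 1, without that base of *Trgc3*, *Trgc2* was 97.3% identical to *Trgc1* (9 differences), *Trgc3* 96.1% (13 differences) and *Trgc4* 82.1% (59 differences). How reads shared between such copies were counted is not stated, so *Trgc1*, *Trgc2* and *Trgc3* counts are uncertain one by one. A Trgc UMI below means a UMI of any of the 4 γ genes, *Trgc4* included.

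The libraries held 121713441 and 100807037 UMIs (PBS and anti–PD-1, the order used throughout), and the gated cells 212079 and 211438. Gated cells had a median of 2634 and 3107 UMIs (range 1141 to 11929 and 1322 to 10430), of 1334 and 1431 detected genes, and of 3.38% and 3.40% mitochondrial UMIs. The libraries differed in the sex of the cells they held: *Xist*, transcribed from the inactive X, gave 51 UMIs in 26 gated PBS cells and 0 in the anti–PD-1 cells, and a Y-linked UMI was found in 7 and 40 gated cells. Sex, the treatment and the library therefore cannot be told apart. The same barcode occurred in both libraries 219 times, 1 gated cell of each library among them. With 1 library per group no test between groups is possible, and the 95% intervals given (exact Poisson for counts and their ratios, Clopper-Pearson for shares) cover counting error only.

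Transcripts of other cell types were present in the gated cells, and free RNA and mixed cells were not separated as their source. A *Trdc* UMI was present in 0.364% and 0.818% of B cells (a UMI each of *Cd79a* and *Cd79b*, median 2057 and 3021 UMIs) and in 0.595% and 1.08% of macrophages (*C1qa* and *Csf1r*, median 8014 and 7985 UMIs). All other requirements but *Cd79a* were met by 0 of 1099 PBS B cells, which allows a share of up to 0.335%. With anti–PD-1 they were met by 3 of 1712 B cells (0.175%). All but *C1qa* were met by 9 of 4871 PBS macrophages (0.185%) and by 13 of 4161 anti–PD-1 macrophages (0.312%). The gate itself held 0.444% and 0.379% of all kept cells. The counting intervals of the macrophage shares overlap those of the gate in both libraries. Those of the B cells overlap them with anti–PD-1 alone. An *S100a8*, *S100a9* or *Lyz2* UMI, genes of myeloid cells, was in 50 and 55 of the gated cells. The 4 fibroblast genes *Col1a1*, *Col1a2*, *Col3a1* and *Dcn* summed to 661 UMIs in the PBS cells, 326 and 315 of them in 2 cells that the doublet scoring did not mark, and to 16 in the anti–PD-1 cells. The 6 neutrophil genes summed to 239 UMIs, 135 in 1 cell, against 1548, 667 in 1 cell, with 3 and 12 cells at 5 or more. Tumor and biliary genes summed to 352 and 169 UMIs, in 63 and 51 cells, macrophage genes to 724 and 551 UMIs and B cell genes to 6 and 16.

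The gated cells were 1.46% (1.14 to 1.84) of the 4733 CD3 cells of the PBS library and 1.04% (0.799 to 1.33) of the 5954 of the anti–PD-1 library. Every cell was also thinned to 1000 UMIs, which leaves out shallower cells, and the gate was applied again to the thinned counts. The shares were then 1.85% (64 of 3457, 1.43 to 2.36) and 1.53% (59 of 3850, 1.17 to 1.97). Thinning can remove a *Trdc* UMI or a UMI of an exclusion gene, so the cells in the gate could change. Unless said otherwise, later shares at 1000 UMIs are of cells gated on all UMIs. Both pairs of intervals, which cover counting error alone, overlap. Gated cells without an *S100a8*, *S100a9* or *Lyz2* UMI (19 and 7) were 0.401% and 0.118% of all CD3 cells, which were not filtered for these genes. The exclusion genes removed more cells than they kept. Of the 159 and 187 CD3 cells with a *Trdc* UMI, 90 and 125 were left out, 55 and 83 of them with a *C1qa* UMI and 28 and 32 with an *Ncr1* UMI. Without *C1qa* among the exclusion genes the gate held 105 and 105 cells, 2.22% and 1.76% of CD3 cells. At the edge of the gate, 18 and 14 cells had exactly 1 *Trdc* UMI and 11 and 10 had 2. The median was 3 *Trdc* UMIs in both libraries, the highest cells had 20 and 16, and 34 and 40 of the cells left out had a single UMI of the exclusion genes. A further 17 and 21 cells had a *Trdc* UMI and no exclusion gene but no CD3 UMI.

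Trgc transcripts, which the gate did not use, were found in most of these cells. A Trgc UMI was present in 56 of 69 cells with PBS (81.2%, 69.9 to 89.6) and in 47 of 62 with anti–PD-1 (75.8%, 63.3 to 85.8). The cells most like them, CD3 cells that passed the same exclusions without a *Trdc* UMI, had one in 34.5% and 23.4% of cells (1338 and 1094 cells, median 2329 and 2440 UMIs), CD8 T cells (CD3 cells with a *Cd8b1* UMI, and none of *Trdc* or the other exclusion genes) in 10.7% and 16.7%, and B cells in 1.36% and 4.21%. NK lineage cells (an *Ncr1* UMI and no CD3 UMI) had Trgc UMIs in 41.3% and 34.8%, though a *Trdc* UMI in 4.67% and 6.38%. The gated intervals lie above those of every one of these groups in both libraries. Thinned to 1000 UMIs, the gated cells had a Trgc UMI in 50.7% and 61.3%, so the order of the libraries turned with depth.

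**Figure D1:**
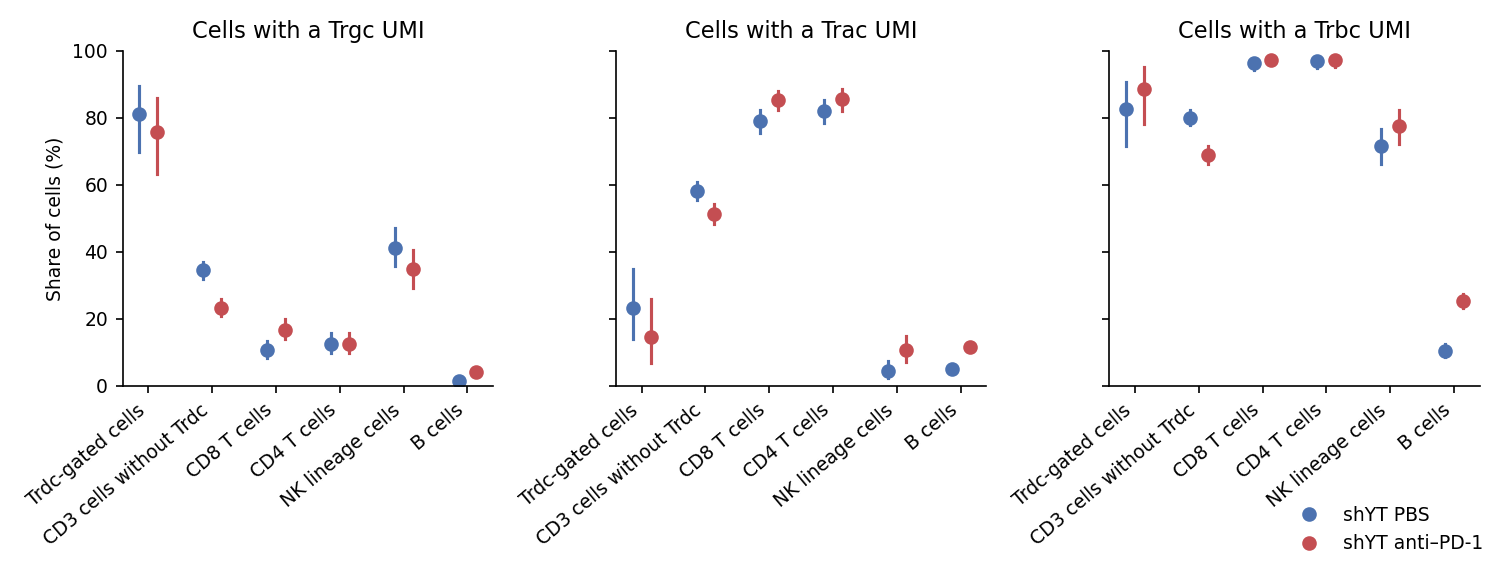
Share of cells (%, vertical axis) with a UMI of a TCR γ (Trgc), α (*Trac*) or β (Trbc) constant gene in the *Trdc*-gated cells and 5 comparison groups, for the PBS (blue) and anti–PD-1 (red) libraries, with Clopper-Pearson 95% intervals. The gated cells stand at 81.2% and 75.8% for Trgc and at 23.2% and 14.5% for *Trac*.

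*Trac*, the constant gene of the α chain, whose rearrangement in αβ T cells cuts out *Trdc*, had the opposite pattern. It was detected in 16 cells with PBS (23.2%, 13.9 to 34.9) and 9 with anti–PD-1 (14.5%, 6.86 to 25.8), against 79.0% and 85.3% of CD8 T cells and 58.2% and 51.4% of the CD3 cells without *Trdc*. In B cells, a cell type that should lack the gene, the *Trac* share was 5% and 11.6%. The anti–PD-1 interval of the gated cells reaches that level, while the PBS interval lies above it. Only 5 and 1 of the gated cells had *Trac* and no Trgc UMI, while 45 and 39 had Trgc and no *Trac*. Trbc UMIs were in 82.6% and 88.7% of gated cells, and in 71.7% and 77.7% of NK lineage cells, so Trbc did not set the gated cells apart. The marker *Cd3e* itself was in 51 and 47 of the cells. By Trgc and *Trac* the label of γδ T cells therefore matched most of the gate. Of its cells, 13 and 15 had no Trgc UMI and 16 and 9 had a *Trac* UMI. NK lineage cells had a *Trac* UMI in 4.33% and 10.6%, so a lack of *Trac* does not tell them from γδ T cells. A single UMI of the CD3 genes was all that 4 and 9 gated cells had. How many gated cells were NK cells with a missed *Ncr1* UMI was not tested.

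*Trdc* gave 330 and 279 UMIs, or 1556 and 1319.5 CPM, the count in every 1000000 UMIs of the gated cells. *Trgc1* gave 98 UMIs in 40 cells and 71 in 30, *Trgc2* 63 in 32 and 84 in 33, *Trgc4* 71 in 36 and 77 in 34, and *Trgc3* 0 and 1. *Trac* gave 29 UMIs and 13, 137 and 61.5 CPM (log2 ratio of anti–PD-1 to PBS −0.94). More than 1 of *Trgc1*, *Trgc2* and *Trgc4* was seen in 39 and 32 cells. Such cells were not read as having a second γ chain. In exon 1, *Trgc1* and *Trgc2* are near copies and *Trgc4* is not, and the rest of the transcripts was not compared. Whether shared reads account for such cells was not tested. Variable genes were caught rarely: 16 and 17 cells had a Trgv UMI and 13 and 13 a Trdv UMI, and none reached the minimum counts for a comparison. *Trgv2* led the γ genes (11 UMIs in 9 cells and 10 in 9), followed by *Trgv1* (5 in 4 and 9 in 8). *Trgv4* was seen in PBS cells alone (4 UMIs), *Trgv6* in 1 and 2 cells, and *Trgv3*, *Trgv5* and *Trgv7* in none. Of the δ genes, *Trdv4* gave 15 UMIs in 5 cells and 14 in 10, and *Trdv5* 2 and 6 UMIs.

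Next, the gated cells were set against CD3 cells without *Trdc*, to find what else went with the receptor. Of 2612 genes with at least 30 UMIs in at least 10 gated cells, 16 (0.613%) were 2-fold or more higher and 14 (0.536%) 2-fold or more lower in the gated cells of both libraries, on the scale of log2(CPM + 20). The minimum was set on the gated cells alone, so a gene could pass it by being high there, and these counts are a description. After *Trdc*, fixed by the gate, the highest by the lower of the 2 libraries was *Cd163l1*, a scavenger receptor of IL-17-type γδ T cells, with log2 differences of 3.53 and 4.11. Next came *Trgc1* (1.77 and 1.84), uncertain alone. With its near copies *Trgc2* and *Trgc3* it gave 759 and 738 CPM in the gated cells against 264 and 193 CPM, log2 differences of 1.46 and 1.83. *Cd7*, a surface protein of T and NK cells, followed (1.64 and 1.69). Of the 12 highest, 4 were receptors that γδ T cells share with NK cells: *Klre1* (1.56 and 1.65), *Klrc1* (1.15 and 1.86), *Cd160* (1.11 and 1.42) and *Klrd1* (1.11 and 1.64), the CD94 chain that pairs with the *Klrc1* product. *Trgc4* (1.42 and 2.05), *Gzma* (1.28 and 2.91) and *Gpr18* (1.28 and 1.24), a lipid receptor of intraepithelial T cells, were also among the 12 highest. Against NK lineage cells the NK receptors were lower in the gated cells, with log2 differences of −1.53 and −1.31 for *Klre1* and −1.29 and −0.75 for *Klrd1*. *Klrb1c* (NK1.1) was in 23 and 25 gated cells and *Cd8a* in 6 and 7.

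Next, 2 effector programs were counted per cell. Of 12 type 1 genes (*Tbx21*, *Eomes*, *Ifng*, *Nkg7*, *Ccl5*, *Gzma*, *Gzmb*, *Prf1*, *Klrd1*, *Klrk1*, *Klrc1* and *Xcl1*), 2 or more were detected in 51 of 69 cells with PBS (73.9%, 61.9 to 83.7) and 54 of 62 with anti–PD-1 (87.1%, 76.1 to 94.3). At 1000 UMIs per cell the shares were 56.5% (44.0 to 68.4) and 75.8% (63.3 to 85.8), against 2.65% and 8.27% in B cells. They were 46.7% and 43.1% in CD3 cells without *Trdc*, 62.5% and 67.3% in CD8 T cells, and 95.2% and 93.4% in NK lineage cells. Both CD8 T cell shares and the PBS share of the CD3 cells without *Trdc* are inside the gated intervals. A like set of 12 type 17 genes (among them *Il17a*, *Il17f*, *Il23r*, *Ccr6*, *Cd163l1*, *5830411N06Rik*, *Blk*, *Maf*, *Il1r1*, *Tmem176a* and *Tmem176b*) gave 24 cells with PBS (34.8%, 23.7 to 47.2) and 16 with anti–PD-1 (25.8%, 15.5 to 38.5). At full depth that share did not set the gated cells apart from NK lineage cells (34.3% and 36.2%) or from B cells (31.1% and 30.4%), which express *Blk* themselves, while it lay above CD8 T cells (13.2% and 8.52%). CD3 cells without *Trdc* stood at 28.6% and 15.3%. At 1000 UMIs it was 21.7% (12.7 to 33.3) and 17.7% (9.20 to 29.5), with CD3 cells without *Trdc* at 15.4% and 6.88%, CD8 T cells at 5.36% and 2.23%, NK lineage cells at 9.28% and 11.0%, and B cells at 9.26% and 5.91%. The PBS share of the CD3 cells without *Trdc* and the anti–PD-1 share of the NK lineage cells are inside the gated intervals. Both programs were called at full depth in 12 and 11 gated cells, type 17 alone in 12 and 5, and neither in 6 and 3.

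A narrower set of 4 genes, chosen after its values were seen and so given as description, stood clear of B cells. These were *Il17a*, *Il23r* (the IL-23 receptor), *Cd163l1* and *5830411N06Rik* (Scart2), a relative of *Cd163l1*. A UMI of any was found in 16 cells with PBS (23.2%, 13.9 to 34.9) and 12 with anti–PD-1 (19.4%, 10.4 to 31.4), and in 0.364% and 0.759% of B cells, 5.84% and 2.52% of CD8 T cells, 4.71% and 1.65% of CD3 cells without *Trdc*, and 0 of 300 and 1 of 282 NK lineage cells. The shares of the 2 libraries differed by less than their intervals. Genes outside the 4 went with them. *Blk*, a kinase of IL-17-type γδ T cells, gave 9 UMIs in the 16 PBS cells with the 4 genes and 0 in the 53 without, and 17 against 2 in the 12 and 50 anti–PD-1 cells. *Tmem176b*, an ion channel gene of IL-17-making lymphocytes, was in all 16 and in 8 of 12 of them, against 9 of 53 and 7 of 50 of the others. *Maf*, a transcription factor needed for IL-17-type γδ T cells, was in 12 and 7, against 5 and 10.

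*Il7r*, the receptor of the survival cytokine IL-7, was in 15 of 16 and 12 of 12 cells with the 4 genes, at 1986 and 1925 CPM, and in 28 of 53 and 14 of 50 of the others, at 478 and 273 CPM. *Ramp1*, a subunit of the receptor for the neuropeptide CGRP, was in 9 and 8 against 4 and 2 cells, and *Actn2*, a cytoskeletal gene, in 4 and 8 against 1 and 2. *Trdv4* UMIs came from 5 of 16 PBS cells and from 0 of the 53 others, and from 6 of 12 and 4 of 50 anti–PD-1 cells. All 3 *Trgv6* UMIs were in cells with the 4 genes. *Trgc1*, *Trgc2* and *Trgc3* together gave 1239 and 1591 CPM in them against 638 and 545 CPM.

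The reverse held for NK receptors and killing genes. *Klrb1c* gave 0 UMIs in the cells with the 4 genes in either library, against 49 and 50 in the others. *Ccl5*, a chemokine of effector T cells, gave 6 and 24 UMIs against 864 and 1268. *Klrd1* gave 1 and 6 UMIs against 90 and 115, *Xcl1* (a chemokine that draws cross-presenting dendritic cells) 1 and 3 against 111 and 164, *Cd160* 0 and 1 against 43 and 66, and *Gzmb* 2 and 2 against 67 and 283. These sums come from 42792 and 38964 UMIs in the cells with the 4 genes and from 169287 and 172474 in the others. Each of these genes was more frequent in cells without the 4 genes in both libraries. With anti–PD-1, *Klrd1* was in 5 of 12 against 34 of 50 cells (154 and 667 CPM), *Ccl5* in 5 against 48 and *Xcl1* in 3 against 30. The cytokine itself was rare: *Il17a* gave 24 UMIs in 4 PBS cells, 9 in the highest, and 61 in 3 anti–PD-1 cells, 53 of them in 1 cell, and *Il17f* and *Il22* gave none.

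**Figure D2:**
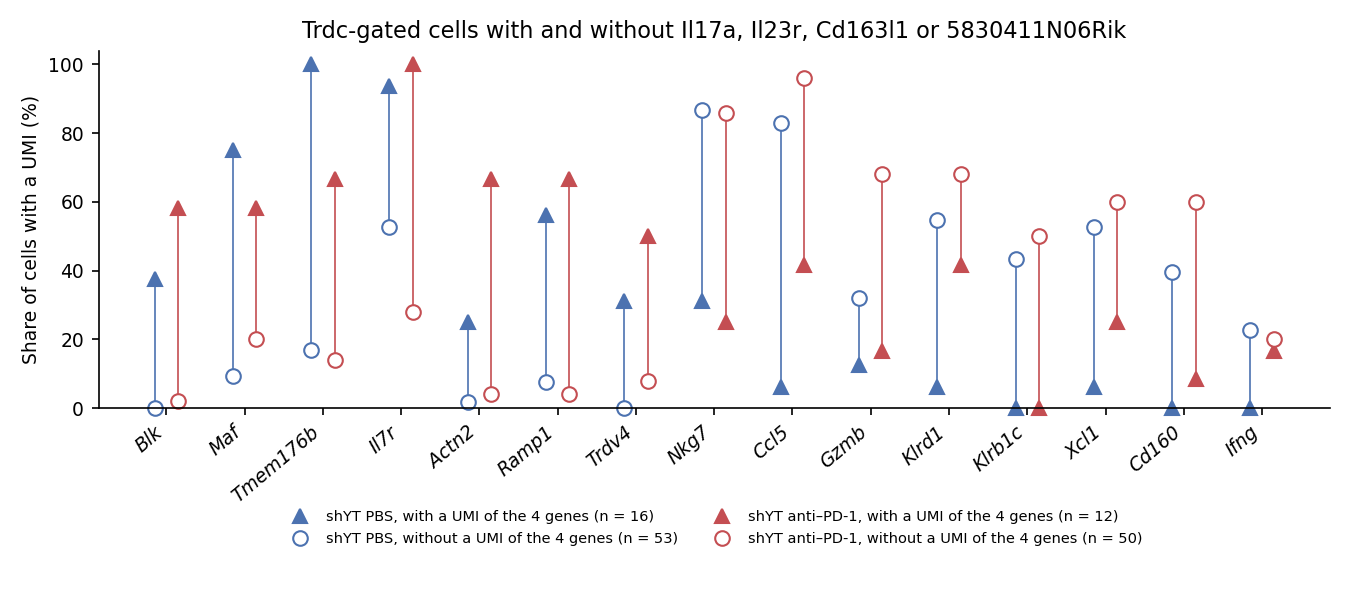
Share of *Trdc*-gated cells (%, vertical axis) with a UMI of each named gene, in cells with (triangles) and without (open circles) a UMI of *Il17a*, *Il23r*, *Cd163l1* or *5830411N06Rik*, in the PBS (blue, 16 and 53 cells) and anti–PD-1 (red, 12 and 50 cells) libraries. Triangles lie higher from *Blk* to *Trdv4* and lower from *Nkg7* to *Ifng*, with *Klrb1c* at 0 in the cells with the 4 genes.

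Between the libraries, 151 of the 2612 genes (5.78%) were 2-fold or more higher and 53 (2.03%) 2-fold or more lower in the anti–PD-1 cells, on the scale of log2(CPM + 20). All 2612 had a median log2 ratio of 0.00. The 12 highest were of 2 kinds. *Thbs1* (2 against 191 UMIs, ratio 95.8 with a counting interval of 26.2 to 797), *Retnlg* (3 against 186), *G0s2*, *Clec4d*, *Trem1* and *S100a8* (118 against 777) are genes of neutrophils and monocytes, and the highest anti–PD-1 cell for each held 87, 141 and 291 of the UMIs of *Thbs1*, *Retnlg* and *S100a8*. The log2 ratio of *Thbs1* was 4.97. It was 2.44 without marked doublets and 1.36 in cells with at most 4 UMIs of the neutrophil and fibroblast genes. The anti–PD-1 cells with 291 and 189 *S100a8* UMIs had no Trgc and no *Trac* UMI, and the doublet scoring did not mark them. At 1000 UMIs per cell *S100a8* was in 11.6% and 33.9% of gated cells and in 10.2% and 34.3% of B cells. That share did not set the gated cells apart from B cells. The others, *Fosl2*, *Tnfaip3*, *Vps37b*, *Crem*, *Dusp5* and *Nr4a3*, are genes of acute activation, and they came from many cells.

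The 12 lowest were mostly genes of fibroblasts and other stroma, and a pair of PBS cells carried most of the collagen. *Col3a1* gave 234 UMIs in 10 PBS cells, 114 of them in 1 cell, and 2 in the anti–PD-1 cells (log2 ratio −5.25, ratio of CPM 0.00857 with a counting interval of 0.00103 to 0.0313). Its log2 ratio was −0.94 without the 5% of gated cells with most UMIs. *Sparc* (−4.55, but −1.52 without the same 5% of cells), *Gsn* (−3.70), *Col1a1* (−3.18, with 77 of 98 UMIs in 1 cell), *Igfbp7* (−2.89), *Fn1* (−2.72), *Pmepa1* (−2.66), *Igfbp4* (−2.62), *Lrp1* (−2.49), *C3* (−2.16) and *Wfdc3* (−1.80) were the others of that kind or of mixed source. Of these *Gsn*, *Col1a1*, *Igfbp7*, *Fn1*, *Lrp1*, *C3* and *Wfdc3* turned sign under 1 or more of the alternatives. *Serpinb6a*, an intracellular protease inhibitor, was spread over more cells than any of these, with 41 UMIs in 24 cells with PBS and 4 in 4 with anti–PD-1 (log2 ratio −2.45). Its log2 ratio was −1.80 in CD3 cells without *Trdc* and −1.63 in NK lineage cells.

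**Figure D3:**
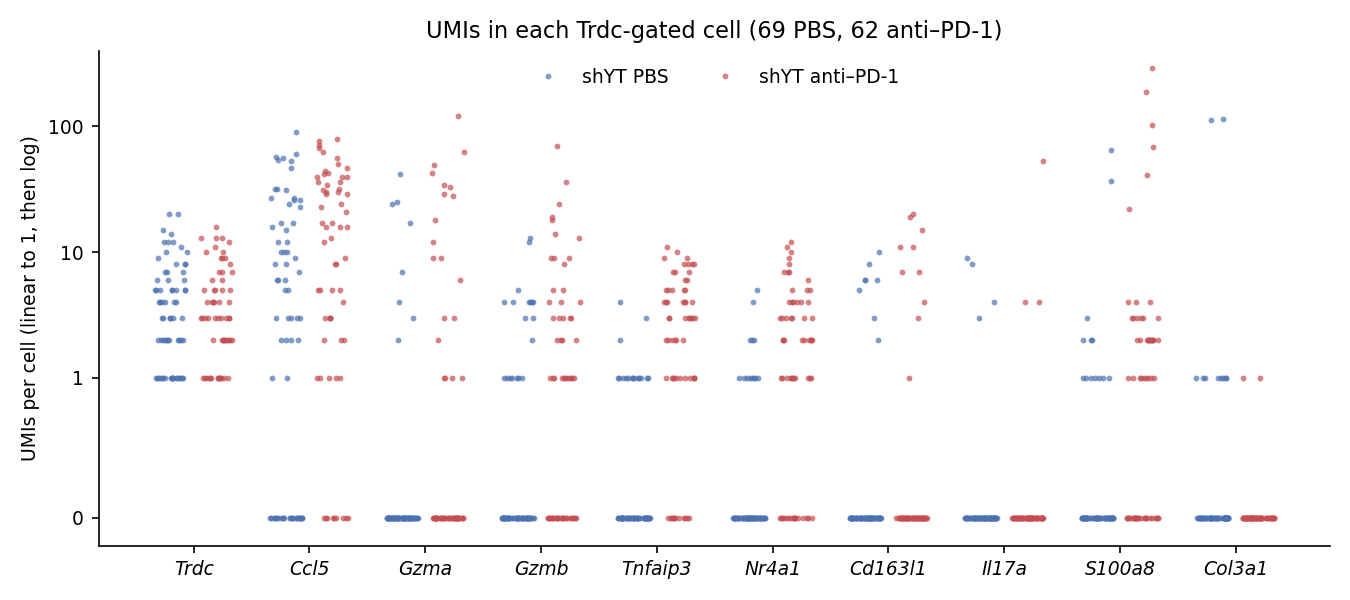
UMIs per cell (vertical axis, linear to 1 and logarithmic above) of 10 genes in each of the 69 PBS (blue) and 62 anti–PD-1 (red) gated cells, 1 point per cell. *Tnfaip3* and *Nr4a1* UMIs are spread over 50 and 45 anti–PD-1 cells, whereas *Col3a1* in PBS and *S100a8* in anti–PD-1 stand high in single cells, up to 114 and 291 UMIs.

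Among the lists of gene programs, immediate early activation had the largest median difference in the gated cells. The marker genes of neutrophils and fibroblasts had larger ones, with medians of 2.68 over 3 genes and −4.22 over 2 genes. Of 24 listed, 21 had enough counts, 15 were 2-fold or more higher and none 2-fold lower in the anti–PD-1 cells, beside 5.78% and 2.03% of all genes, with a median log2 ratio of 1.49 against 0.00 for all genes. *Tnfaip3*, which encodes the NF-κB inhibitor A20, gave 22 UMIs in 16 cells with PBS and 204 in 50 with anti–PD-1, with a log2 ratio of 2.99 and a ratio of CPM between 5.98 and 15.2. *Nr4a1*, an orphan nuclear receptor induced by TCR signaling, gave 23 in 13 and 166 in 45 cells (2.65, ratio between 4.66 and 11.7). Both were detected in most anti–PD-1 cells and in a minority of PBS cells.

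The rest of the listed genes with enough counts had the same direction, with *Dusp2* (68 and 55 UMIs, −0.28) as the exception. *Vps37b*, an endosomal sorting gene, gave 35 and 302 UMIs (2.97), *Nfkbia*, the gene of IκBα, 83 and 379 (2.14), and *Fosl2*, an AP-1 factor, 6 and 78 (3.01). *Junb*, another AP-1 factor, was already in 57 PBS cells and differed in level more than in the number of cells, at 1485 and 4067 CPM (1.44). *Nr4a3*, *Nr4a2*, *Dusp5* and *Crem*, the last a cAMP-responsive repressor outside the list, had log2 ratios of 2.75, 2.56, 2.82 and 2.94. *Fos*, *Jun*, *Egr1*, *Ier2* and *Zfp36* stayed below 2-fold, between 0.44 and 0.75.

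The same difference was present in the other cell groups. These genes had a median log2 ratio of 1.44 in CD3 cells without *Trdc*, 1.37 in CD8 T cells, 1.09 in CD4 T cells (chosen by *Cd4* as the CD8 T cells by *Cd8b1*), 1.67 in NK lineage cells, 1.39 in B cells and 1.45 in macrophages. At 1000 UMIs per cell, *Nr4a1* was in 7.25% and 46.8% of gated cells and in 9.36% and 48.6% of B cells. *Tnfaip3* was in 8.70% and 59.7% of gated cells, with B cells at 5.01% and 17.6%, CD8 T cells at 14.4% and 42.1%, and NK lineage cells at 14.4% and 58.1%. With 1 library per group, whether the gated cells differed from these groups was not tested. Within cells that had Y-linked UMIs without *Xist* (5 and 40 cells) the median was 1.32 over 19 genes. These cells held 11759 and 154072 UMIs, and 240 of the 915 genes compared there were 2-fold or more higher. Genes could pass the minimum counts there through the anti–PD-1 cells alone, so this value cannot show whether the difference holds within 1 sex. Under the 19 alternatives of gate and processing the median lay between 1.31 and 1.54, over 7 to 22 genes. Some of them changed only the added CPM, the scaling or the weight of the same cells.

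Next, genes of killing and of type 1 cytokines were compared. Of 25 listed, 21 had enough counts, 4 were 2-fold or more higher (5.78% of all genes) and none 2-fold lower (2.03%) in the anti–PD-1 cells, and the median log2 ratio was 0.45, but −0.21 within cells that had Y-linked UMIs without *Xist* and −0.20 within cells without *S100a8*, *S100a9* or *Lyz2* UMIs. The 4 were *Gzma*, *Gzmb*, *Prf1* and *Ifng*. *Gzmb*, the gene of granzyme B, gave 69 UMIs in 19 PBS cells, 13 in the highest, and 285 in 36 anti–PD-1 cells, 70 in the highest, or 325 and 1348 CPM (log2 ratio 1.99, ratio between 3.17 and 5.47). *Gzma* gave 124 UMIs in 8 cells and 466 in 20, with 42 and 121 in the highest cell (1.88, ratio between 3.09 and 4.63). *Prf1*, which encodes the pore protein perforin, gave 9 UMIs in 7 cells and 41 in 15 (1.78). In cells with a Trgc UMI (56 and 47) the log2 ratios were 1.96 for *Gzmb*, 1.25 for *Gzma* and 0.24 for *Prf1*, which lost its call, and *Prf1* turned to −2.03 in cells without *S100a8*, *S100a9* or *Lyz2* UMIs.

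The granzymes were found in more cells as well as at a higher sum. At 1000 UMIs per cell a *Gzma* or *Gzmb* UMI was in 21.7% (12.7 to 33.3) with PBS and in 51.6% (38.6 to 64.5) with anti–PD-1. *Gzmb* alone was in 18.8% and 41.9%, against 9.90% and 14.5% of CD3 cells without *Trdc*, 17.6% and 19.0% of CD8 T cells, 45.4% and 61.4% of NK lineage cells, and 1.04% and 3.19% of B cells, which set the background. The log2 ratio of *Gzmb* was 1.18 in CD3 cells without *Trdc*, 0.48 in CD8 T cells and 0.65 in NK lineage cells, and that of *Gzma* 0.25, −0.84 and 0.51. The gated cells had the largest of these ratios for both genes, a difference between cell groups that was not tested.

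Markers of NK cells and ILC1 summed to 0.222% and 0.486% of the gated UMIs over their list of 10 genes, which holds *Gzma* and *Prf1*. The 8 others summed to 337 and 521 UMIs, with *Ncr1* at 0 by the gate, *Klrb1c* at 49 and 50 UMIs, *Eomes* at 2 and 20, and *Klra8* at 0 and 12 (10 in 1 cell). In gated cells without a *Cd8a* or *Klrb1c* UMI (44 and 35 cells), the log2 ratios of *Gzma* and *Gzmb* were 3.76 and 2.76. Without the cells of more than 4 neutrophil and fibroblast UMIs (62 and 49 left) they were 2.33 and 2.15. In cells with no *S100a8*, *S100a9* or *Lyz2* UMI they were −0.37 and −0.19, over 19 and 7 cells, and in cells that had Y-linked UMIs without *Xist* 0.02 and 0.35, over 5 and 40 cells. The part of NK cells, myeloid RNA and sex in the granzyme difference was not tested beyond these values.

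Most other type 1 genes differed less. *Ccl5*, the most abundant of them, gave 870 UMIs in 45 cells and 1292 in 53 (0.57), *Nkg7*, a cytotoxic granule gene, 250 in 51 and 312 in 46 (0.32), and *Xcl1* 112 and 167 (0.56). *Ifng* gave 20 UMIs in 12 cells and 45 in 12, 25 of the latter in 1 cell, and its ratio of 1.03 turned to −0.48 in cells with a Trgc UMI, −0.51 in cells with at least 2 *Trdc* UMIs and −0.89 in cells without *Cd8a* or *Klrb1c* UMIs. *Il2rb*, *Klrk1* (NKG2D), *Ctsw* and *Cxcr3* had log2 ratios of 0.11, −0.14, −0.46 and −0.63. *Eomes*, a transcription factor of cytotoxic cells, went from 2 UMIs in 1 cell to 20 in 9, below the minimum counts. Among other chemokines *Ccl4*, which draws T cells and monocytes, gave 78 UMIs in 17 cells and 232 in 33 (1.53), and turned to −0.45 in cells that had Y-linked UMIs without *Xist* and to −1.84 in cells without *S100a8*, *S100a9* or *Lyz2* UMIs.

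**Figure D4:**
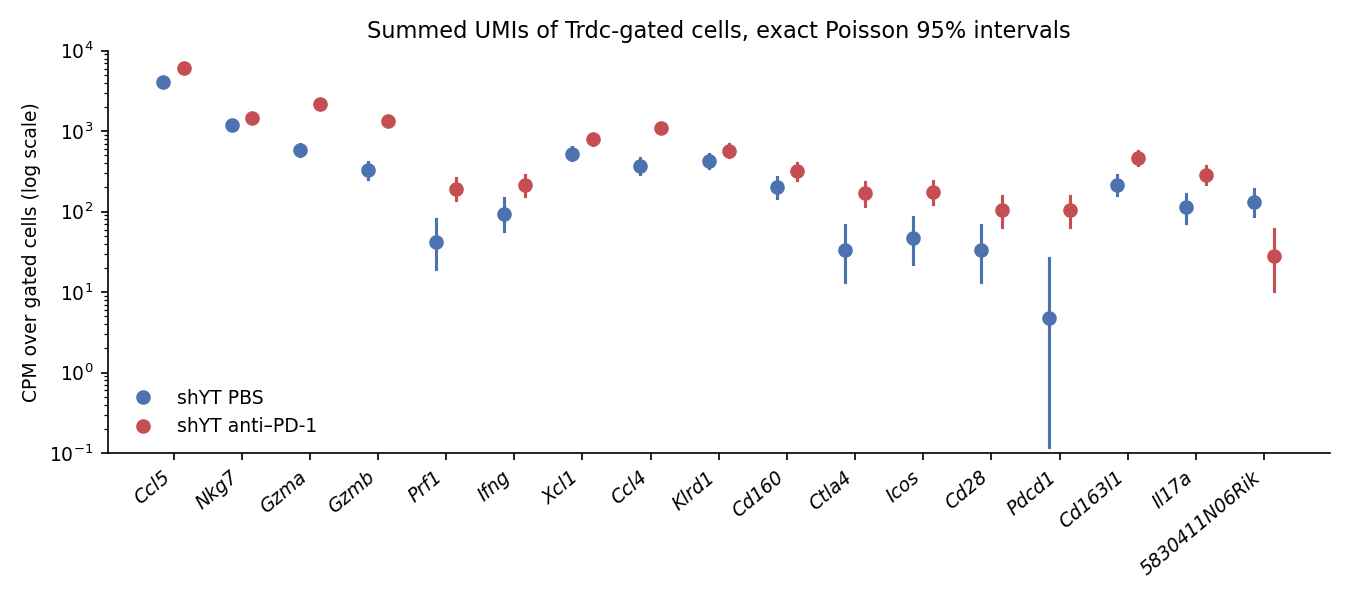
CPM of summed gated cells (log axis) for effector, checkpoint and type 17 genes in the PBS (blue) and anti–PD-1 (red) libraries, with exact Poisson 95% intervals. Intervals overlap for *Nkg7*, *Klrd1*, *Cd160* and *Cd28*, *5830411N06Rik* lies lower with anti–PD-1, and the other 12 lie higher with intervals that do not overlap. The intervals cover counting error and not the spread between cells. For *Il17a* and *Ifng* a single cell held most of the anti–PD-1 UMIs.

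Checkpoint and costimulatory receptors were sparse in these cells. Of 16 listed, 7 had enough counts, of which *Ctla4* and *Icos* were 2-fold or more higher with anti–PD-1, beside 5.78% of all genes, and the median log2 ratio was 0.39. *Ctla4*, an inhibitory receptor for B7 ligands, gave 7 UMIs in 5 cells with PBS and 36 in 16 with anti–PD-1 (1.84, ratio between 2.26 and 13.7). *Icos*, an activating member of the same family, gave 10 in 8 and 37 in 16 (1.54, ratio between 1.81 and 8.37). *Pdcd1*, which encodes PD-1, gave 1 UMI with PBS and 22 with anti–PD-1, in 11 cells, below the minimum counts, a ratio of 22.1 with a counting interval of 3.57 to 911. *Cd28*, the costimulatory receptor, gave 7 and 22 UMIs, below it as well.

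All 4 were detected in few PBS cells. At 1000 UMIs per cell *Pdcd1* was in 1.45% and 9.68% of gated cells, 9.69% and 13.2% of CD8 T cells, and 0.473% and 0.650% of B cells. *Ctla4* was in 1.45% and 11.3%, with CD8 T cells at 9.69% and 23.6% and B cells at 1.70% and 3.84%, so its PBS share is not above background. Its log2 ratio of 1.60 in CD3 cells without *Trdc* and 1.63 in CD8 T cells was of the same order as in the gated cells. *Tigit*, *Lag3* and *Havcr2* stayed at 7 UMIs or fewer in either library, and *Tox* gave 13 and 22.

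Within the type 17 list, genes differed in both directions. Of 26 listed, 12 had enough counts, 2 were 2-fold or more higher and 2 lower, beside 5.78% and 2.03% of all genes, and the median log2 ratio was −0.38, beside −0.52 for the same genes in CD3 cells without *Trdc*. *Cd163l1* gave 46 UMIs in 8 cells with PBS and 98 in 10 with anti–PD-1 (1.03), and *Actn2* 7 and 24 (1.33). *5830411N06Rik*, the relative of *Cd163l1*, gave 28 in 7 and 6 in 3 (−1.65), and *Capg*, an actin-capping gene, 54 and 21 (−1.20, but 2.55 in cells that had Y-linked UMIs without *Xist*). *Il23r* gave 11 UMIs in 8 cells and 4 in 3, below the minimum counts. Each of these values rests on 10 or fewer cells in at least 1 library, except that of *Capg* (17 and 13 cells).

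Genes of tissue residency and of circulation were mixed as well. The 8 residency genes with enough counts had a median log2 ratio of 0.05. Of these, *Cd69* (38 and 83 UMIs, log2 ratio 1.05), which holds cells in tissue and is also an activation marker, *Rgs1* (128 and 348, 1.42) and *Bhlhe40* (25 and 86, 1.63) were 2-fold or more higher, beside 5.78% of all genes. In cells that had Y-linked UMIs without *Xist* all 3 turned, to −0.12, −0.65 and −0.71, and *Rgs1* was −0.15 in cells without *S100a8*, *S100a9* or *Lyz2* UMIs. *Cxcr6*, a chemokine receptor of liver-resident lymphocytes, gave 96 UMIs in 41 cells and 71 in 30 (−0.41), and *Itga1* 23 and 23 (0.00). Of 7 naive and circulating genes, 2 were 2-fold or more higher, among them *Ccr7* (4 and 26, 15 of them in 1 cell, 1.88), and *Igfbp4* was 2-fold lower, beside 5.78% and 2.03% of all genes. *Tcf7*, *Lef1* and *Satb1* had ratios of −0.44, −0.23 and −0.30. *Il7r* gave 166 UMIs in 43 cells and 122 in 26 (−0.43).

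The remaining lists gave smaller differences. All 11 heat shock genes were higher with anti–PD-1, as were 1395 of the 2612 genes compared, and 3 of the 11 were so by 2-fold or more, against 5.78% of all: *Hspa1a* (36 and 122 UMIs, 1.65) and *Hspa1b* (47 and 110, 1.16), the inducible HSP70 genes, and *Dnaja1* (116 and 243, 1.04). The list's median was 0.41, beside 0.36 in CD3 cells without *Trdc* and 0.59 in B cells. Of 16 interferon response genes *Isg15* (12 and 36, 1.31) and *Irf8* (5 and 38, 22 of them in 1 cell, 2.20) were 2-fold higher, beside 5.78% of all genes, with a median of 0.52 that was 0.65 in CD3 cells without *Trdc*, and −0.39 within the gated cells that had Y-linked UMIs without *Xist*. CD3 and TCR signaling genes gave a median of −0.02 over 12 genes and none past 2-fold. The 4 cycling genes with enough counts had a median of 0.31 with none past 2-fold, and *Mki67* gave 6 and 3 UMIs. The shRNA targets were not informative, with 1 and 0 UMIs of *Yap1* and none of *Wwtr1*.

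**Figure D5:**
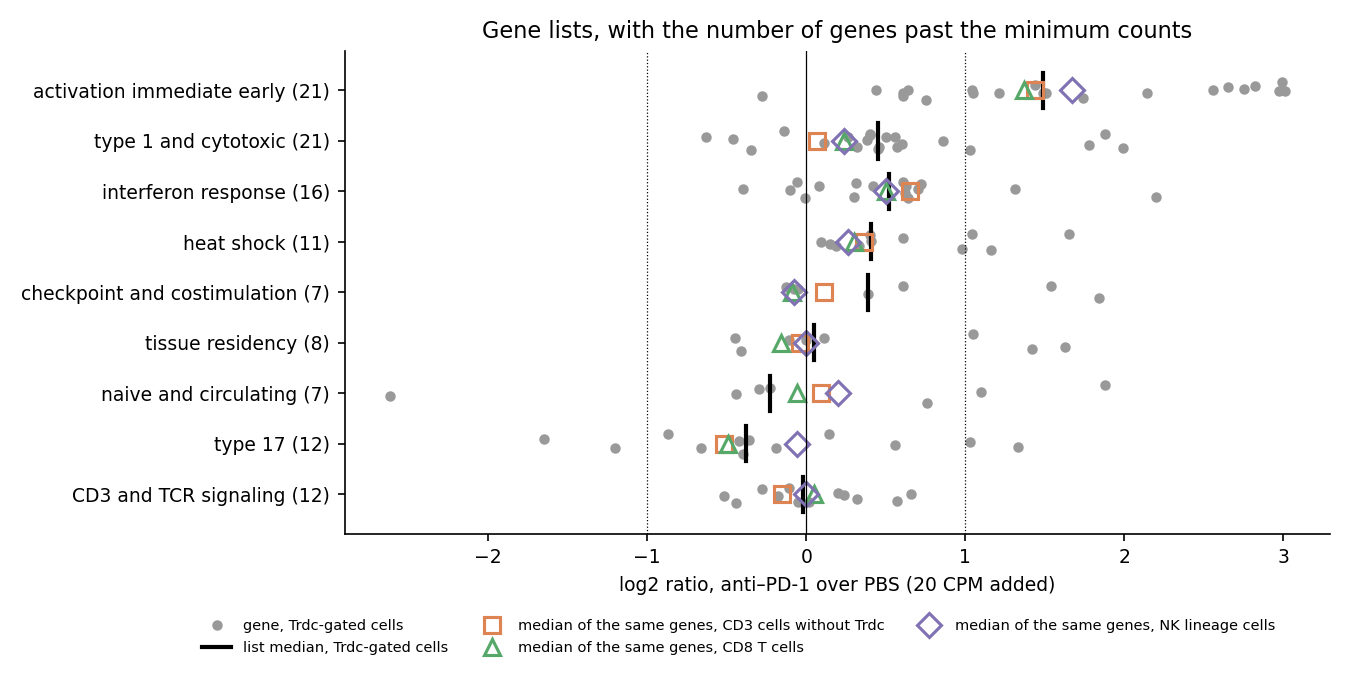
Log2 ratio of anti–PD-1 to PBS with 20 CPM added (horizontal axis) for each gene with enough counts (gray points) in 9 lists, with the list median in the *Trdc*-gated cells (black bar) and the median of the same genes in CD3 cells without *Trdc*, CD8 T cells and NK lineage cells (open symbols). Dotted lines mark 2-fold. The immediate early list stands at 1.49 in the gated cells and between 1.37 and 1.67 in the 3 other groups.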

How the data were processed

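Tumor-bearing livers were digested, freed of red and dead cells and run on a microwell kit (GEXSCOPE V2, Singleron). The deposited values are UMI counts for each gene in each barcode, neither normalized nor scaled, which the authors made with the Singleron software against mm10. The submitters' processing notes name Seurat 4.3, and other versions and the handling of shared reads and strand are not given in the sources used here. The matrices hold barcodes already called as cells, and no column of another sample.

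Kept cells, the gate and the comparison groups were set as given with the results. UMIs were summed over gated cells per library and divided by their total (CPM), and log2 ratios set anti–PD-1 against PBS with 20 CPM added on each side, for 2612 genes with 30 UMIs in 10 gated cells, without sex-linked and mitochondrial genes. A gene was called at 2-fold. No test was made, with 1 library per group. For shares across depths each cell was thinned to 1000 UMIs with a fixed seed, which left out 1075 and 1347 kept cells and no gated cell. Doublets were scored against simulated pairs and the top 5% per library marked (7 and 4 gated cells), which are kept in the main values and left out in an alternative. That cut caught 39.7% and 44.7% of the simulated pairs. The named genes were the genes of the gate and of 17 program lists (those past the minimum counts with values), the 12 highest and 12 lowest between libraries, and the 12 highest over CD3 cells without *Trdc*, and some of these genes are not reported here. The members, the lists and the tests were chosen with earlier results of these data known, and the 4-gene set and 3 of 19 alternatives after seeing the values. Sequences came from GENCODE vM21 on GRCm38. The code was tested on simulated data. Python 3.11.15 was used with numpy 2.4.6, scipy 1.17.1, pandas 2.3.3, scikit-learn 1.9.0 and matplotlib 3.10.9.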

Additional observations from a re-analysis of the deposited data

How the results depend on the processing

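With 1 library per group, leaving out a library leaves nothing to compare. No paired analysis was possible because each group has 1 library and the result comes from no test. The 131 cells set the width of the intervals of shares, and genes under 30 UMIs entered no count of calls or list median. Under 19 alternatives, 279 values for shares, counts of genes and list medians moved by less than their counting interval or 1.5 times, and 38 moved more. Of the list medians 15 had the other sign under an alternative, 3 of them past their interval. Of the values for named genes 26 turned, 204 moved and 865 did not. The cause was not tested for any of them.

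Gated cells with a Trgc UMI were 0.789% of anti–PD-1 CD3 cells, and *Ifng* turned to −0.48 (log2 ratio, as for all genes named here). With at least 2 *Trdc* UMIs the PBS share was 1.08% and *Ifng* −0.51, and with no *Trac* UMI the PBS share was 1.12%. With no *Cd8a* and no *Klrb1c* UMI the shares were 0.930% and 0.588% and the PBS type 1 share 59.1%. Among 1333 genes 84 were then 2-fold higher and 33 lower, with *Ifng* at −0.89, *Col1a1* at 0.03 and *C3* at 0.05.

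In cells that had Y-linked UMIs without *Xist* (5 in PBS) the PBS share was 1.01% and its type 17 share 20%. Of the 915 genes compared there 240 were 2-fold higher, beside 151 of 2612 in the main values. List medians were −0.21 for type 1, −0.39 for interferon response and 1.23 for cycling. *Gsn* and *Col1a1* were 1.39, *C3* and *Wfdc3* 1.56, *Capg* 2.55, *Ccl4* −0.45, *Cd69* −0.12, *Rgs1* −0.65 and *Bhlhe40* −0.71.

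Thinned before the gate (64 and 59 cells), the shares were 1.85% and 1.53%, type 17 shares 21.9% and 13.6%, type 1 shares 59.4% and 74.6%, and genes 2-fold higher 47 and lower 12 among 614. The residency median was 1.46 over 4 genes, against 0.05 over 8 genes in the main values, and *Cd44* was −0.13. Without the 5% of cells with most UMIs *Col1a1* was 0.19 and *C3* 1.05. With 5 CPM and 50 CPM added, 81 and 31 of 2612 genes were 2-fold lower. With minimums of 15 UMIs and 5 cells, 241 of 4812 genes were higher and 176 lower.

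Gated cells with no *S100a8*, *S100a9* or *Lyz2* UMI (19 and 7) were 0.401% and 0.118% of all CD3 cells. Among them the type 17 shares were 47.4% and 42.9%, the anti–PD-1 type 1 share was 71.4%, and 26 genes were higher and 27 lower among 284. Medians were −0.20 for type 1 and 0.97 for heat shock, and *Gzma* was −0.37, *Gzmb* −0.19, *Prf1* −2.03, *Ccl4* −1.84, *Rgs1* −0.15, *Fn1* 1.94 and *Lrp1* 2.23. With *C1qa* allowed the shares were 2.22% and 1.76%, *Igfbp7* 1.42 and *Fn1* 0.89.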
